A study of Danio rerio with 12 samples.

Results

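To ask whether loss of both Csf1 receptors altered the transcriptome of embryonic macrophages in the same way at an early and a later stage, the genotype by stage interaction was computed in sorted mpeg-GFP+ zebrafish cells. The interaction is the difference between csf1rDM and control at 50 h post-fertilisation (hpf) minus the same difference at 28 hpf, on a log2 scale. A positive value means that the genotype effect was more positive at 50 hpf, and a negative value that it was more negative. The comparison used all 12 of the 12 libraries of the series, in 4 groups of 3: csf1rDM at 50 hpf, control at 50 hpf, csf1rDM at 28 hpf and control at 28 hpf. The csf1rDM embryos were csf1ra j4e1/j4e1 and csf1rb re01/re01 and carried tg(mpeg-GFP), the controls were wild type with the same reporter, and nothing states that the controls were siblings of the mutants. The paper lists a further transgene, an shhb line with an mCherry reporter, in its control animals and does not say whether the mutants carried it. Cells came from trypsinised whole embryos, which had been kept in PTU, a blocker of pigment formation, from about a day of age. Each library pooled 35 embryos, except for csf1rDM at 50 hpf with 70, so that replicates are pools and not animals. Both receptors were mutated in every cell of the csf1rDM embryos, and the labels do not separate macrophages by position in the embryo. In such bulk samples, a change in the share of a macrophage subset and a change in RNA per cell cannot be told apart.

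CSF1R is a receptor tyrosine kinase of the mononuclear phagocyte lineage. Its ligands sustain survival, proliferation and differentiation of many tissue macrophages, and zebrafish carry duplicated receptor genes, csf1ra and csf1rb. In zebrafish embryos, early macrophages form on the yolk, spread through the tissues over the next days and give rise to the first microglia of the brain. The reporter uses the promoter of mpeg1, which encodes a pore-forming protein of phagocytes.

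The libraries held between 8641139 and 20261650 counts over 35117 gene IDs, of which 5153 had no count in any library and 16429 were tested. Replicates of a group differed by more than sampling noise, so that no library was counted as a copy of another. The summed level of 32 IDs of macrophage marker genes lay between 26227 and 30818 CPM (counts divided by the TMM-scaled library size) in csf1rDM and between 20964 and 23254 CPM in control at 50 hpf. At 28 hpf it lay between 32371 and 33359 CPM in csf1rDM and between 26943 and 27991 CPM in control, and no ID of this list was at 0 in all libraries. Skeletal muscle genes split the libraries in another way. Their 28 IDs, led by actc1b, summed to over 1000 CPM in 5 libraries: replicate 3 of csf1rDM at 50 hpf with 7651 CPM, replicates 1 and 2 of control at 50 hpf with 5888 and 5221 CPM, and replicates 2 and 3 of csf1rDM at 28 hpf with 1083 and 5155 CPM. The other libraries held between 12.5 and 178 CPM of them. Because this signal was present in both genotypes at 50 hpf and at 28 hpf in csf1rDM alone, it moves with the interaction. Its part in the results was not tested, and values without these 5 libraries are given below.

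The targeted genes and the reporter gene did not pass the interaction test. Expression of csf1ra (ENSDARG00000102986) measured 339, 405 and 399 CPM in csf1rDM and 445, 349.7 and 416 CPM in control at 50 hpf. At 28 hpf it measured 239, 301 and 273 CPM in csf1rDM and 227, 235 and 214 CPM in control, with an interaction of -0.35 ± 0.154 (log2, SE, adjusted p = 0.363, edgeR's quasi-likelihood test with Benjamini-Hochberg adjustment, as for all adjusted p values here). For csf1rb (ENSDARG00000053624), 193, 153 and 214 CPM in csf1rDM stood against 441, 257 and 295 CPM in control at 50 hpf. The values at 28 hpf were 61.4, 92.2 and 97.8 CPM in csf1rDM and 135, 136 and 161 CPM in control. The csf1rb transcript was lower in csf1rDM by similar amounts at the 2 stages (-0.83 ± 0.210 at 50 hpf, adjusted p = 0.014, and -0.78 ± 0.211 at 28 hpf, adjusted p = 0.0203), with an interaction of -0.05 ± 0.296 (adjusted p = 0.98). The most abundant ID with the symbol mpeg1 (ENSDARG00000055290) was higher in csf1rDM by 0.36 ± 0.0483 at 50 hpf and 0.36 ± 0.0484 at 28 hpf, and its interaction was 0.00 ± 0.0690. The symbol belongs to 3 IDs. The less abundant ENSDARG00000043093 had an effect of 1.21 ± 0.399 at 50 hpf (adjusted p = 0.0505) and 2.55 ± 0.420 at 28 hpf (adjusted p = 0.00113). Its interaction was -1.34 ± 0.565 (adjusted p = 0.336). Transcript levels do not check alleles that leave a transcript in place.

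At an adjusted p under 0.05, 151 genes passed the interaction test, 0.919% of the genes tested, and 2115 genes had an unadjusted p under 0.05. The genotype effect was more positive at 50 hpf in 62 of them (0.377%) and more negative in 89 (0.542%). Scaling with DESeq2 size factors in place of TMM gave 85 more positive and 71 more negative genes, so that the balance between the directions depended on scaling. With the thresholds the study states for its comparisons, an adjusted p under 0.01 and an absolute log2 value above 1, 26 genes passed (0.158%), 15 more positive and 11 more negative at 50 hpf. The genotype effects themselves were broader. At 50 hpf 1876 genes were lower in csf1rDM (11.4%) and 1387 higher (8.44%), and at 28 hpf 1786 genes were lower (10.9%) and 1587 higher (9.66%). A gene past the test at one stage and not at the other is not shown to differ between stages, so only the 151 genes of the interaction test are described as differing.

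These genes fell into 3 classes by their genotype effects at each stage, which use the same contrasts and add no test. In 88 genes the effect was larger at 50 hpf ("grown"), with 32 genes higher and 56 lower in csf1rDM at 50 hpf. In 44 genes it was larger at 28 hpf ("shrunk"), with 23 genes higher and 21 lower in csf1rDM at 28 hpf. In 19 genes the effects had opposite signs and each passed an adjusted p of 0.05 ("reversed"), of which 10 were lower in csf1rDM at 50 hpf and higher at 28 hpf, and 9 the other way. Opposite signs of any size were present in 70 of the 151 genes.

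**Figure D1:**
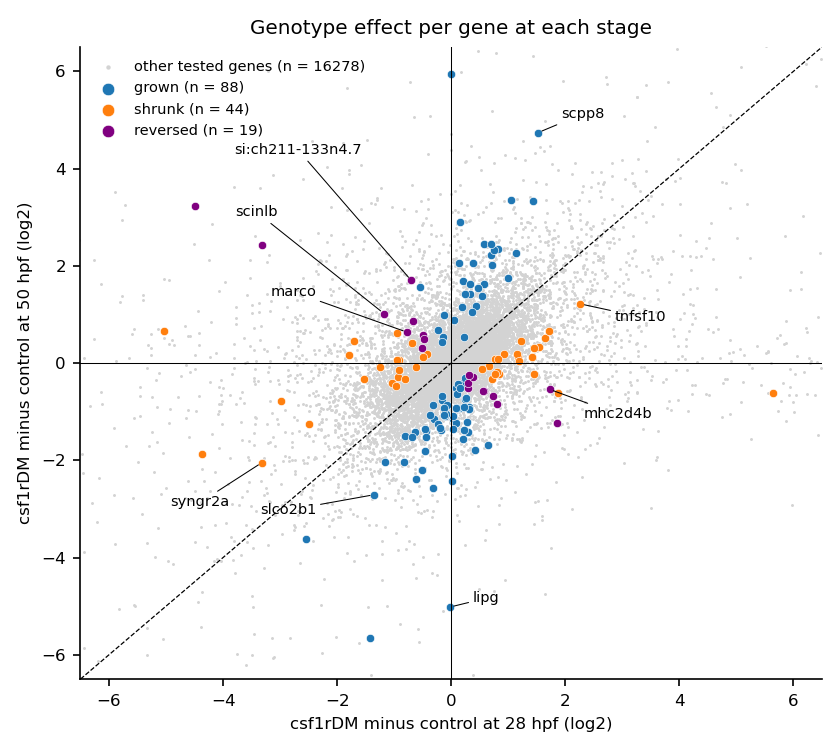
Genotype effect of each of the 16429 tested genes at 28 hpf (x axis) against 50 hpf (y axis), both csf1rDM minus control on a log2 scale. Coloured points are the 151 genes of the interaction test in the classes grown (88), shrunk (44) and reversed (19), grey points the other genes, and the dashed line marks equal effects. The axes end at 6.5, which leaves out 143 genes, 1 of them coloured.

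Among the reversed genes, mhc2d4b (ENSDARG00000101030), a major histocompatibility complex class II gene of antigen presentation, had the smallest p of all genes. It measured 499.7, 544 and 543 CPM in csf1rDM and 755, 796 and 756 CPM in control at 50 hpf. Its 28 hpf values were 409.7, 343 and 438 CPM in csf1rDM and 119, 131 and 111 CPM in control. All csf1rDM libraries were thus below all control libraries at 50 hpf and above them at 28 hpf, and control at 28 hpf had the lowest values of the 4 groups. The genotype effect was -0.54 ± 0.0895 at 50 hpf and 1.72 ± 0.0923 at 28 hpf, an interaction of -2.26 ± 0.128 (adjusted p = 5.23e-06). In control the transcript was higher at 50 than at 28 hpf by 2.68 on the log2 scale (adjusted p = 3.54e-09), in csf1rDM by 0.42 (adjusted p = 0.00401).

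The lysosomal membrane protein gene cln3 (ENSDARG00000037865), whose human orthologue is mutated in Batten disease, had the same order of the genotypes at each stage. It measured 38.2, 46.2 and 52.2 CPM in csf1rDM and 65.3, 70.3 and 67.7 CPM in control at 50 hpf, with 55.1, 52.2 and 50.4 CPM in csf1rDM and 37.1, 33.9 and 34.7 CPM in control at 28 hpf. The groups did not overlap at either stage, and the interaction was -1.15 ± 0.161 (adjusted p = 0.00631). The stage difference was in control, which was higher at 50 hpf by 0.94 (adjusted p = 6.74e-05), while csf1rDM differed by -0.21 between stages (adjusted p = 0.203). Genes of this direction with smaller effects were ptmab, a prothymosin (interaction -0.70 ± 0.119, adjusted p = 0.0188), and asb8, a SOCS-box protein gene (-0.81 ± 0.134, adjusted p = 0.0167). The low-abundance caspase gene caspbl, of the inflammatory caspase family, measured 1.85, 3.30 and 3.70 CPM in csf1rDM and 7.81, 5.31 and 7.68 CPM in control at 50 hpf, with 4.86, 7.83 and 5.21 CPM in csf1rDM and 2.30, 1.38 and 1.30 CPM in control at 28 hpf (-3.08 ± 0.514, adjusted p = 0.0171). The uncharacterised genes zgc:152774, si:dkey-49n23.1 and zgc:92606 had interactions between -1.65 and -1.13. Of 12 leave-one-out fits, each without 1 library, 4 called zgc:152774, 3 zgc:92606 and 0 si:dkey-49n23.1.

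In the opposite direction, marco (ENSDARG00000059294), a scavenger receptor that binds bacteria, measured 697, 739.7 and 715 CPM in csf1rDM and 484, 443 and 459 CPM in control at 50 hpf. The 28 hpf libraries held 125, 125 and 134 CPM in csf1rDM and 220.1, 232 and 205 CPM in control. Here csf1rDM was above control at 50 hpf and below it at 28 hpf without overlap, and both genotypes were higher at the later stage, csf1rDM by 2.48 and control by 1.08 on the log2 scale (adjusted p = 1e-09 and 2.46e-07). The interaction was 1.41 ± 0.0943 (adjusted p = 1.95e-05).

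The uncharacterised gene si:ch211-133n4.7 (ENSDARG00000095424) had the same order, with 83.9, 93.3 and 76.2 CPM in csf1rDM and 27.4, 25.9 and 24.7 CPM in control at 50 hpf. Its 28 hpf values were 10.1, 8.17 and 7.63 CPM in csf1rDM and 13.1, 14.2 and 14.5 CPM in control, which gave an interaction of 2.40 ± 0.180 (adjusted p = 5.1e-05). For scinlb (ENSDARG00000058348), a scinderin-like gene of the actin-severing gelsolin family, the values at 50 hpf were 189.9, 189.7 and 190.3 CPM in csf1rDM and 76.6, 119.6 and 84.9 CPM in control. The 28 hpf values were 230.1, 258 and 175 CPM in csf1rDM and 500.2, 466 and 537 CPM in control. The stage difference, 50 minus 28 hpf, was -0.22 in csf1rDM (adjusted p = 0.349) and -2.42 in control (adjusted p = 6.08e-07), and the interaction was 2.20 ± 0.228 (adjusted p = 0.00102).

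The remaining named genes of this direction were ucp2, a mitochondrial carrier of the uncoupling protein family (0.84 ± 0.0937, adjusted p = 0.0016), pinx1, known in human cells as a telomerase inhibitor (1.08 ± 0.160, adjusted p = 0.00954), and rarg, a retinoic acid receptor (1.55 ± 0.218, adjusted p = 0.00648). The symbol rarg belongs to 2 IDs, and ENSDARG00000034117 is the one measured. The heme-degrading enzyme gene hmox1 measured 821, 1160.1 and 841 CPM in csf1rDM and 639, 763 and 591 CPM in control at 50 hpf, with 279, 303 and 299 CPM in csf1rDM and 378, 477 and 369.8 CPM in control at 28 hpf. Its groups did not overlap at either stage, and the interaction was 0.98 ± 0.198 (adjusted p = 0.0391, called in 3 of the 12 leave-one-out fits, each without 1 library).

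**Figure D2:**
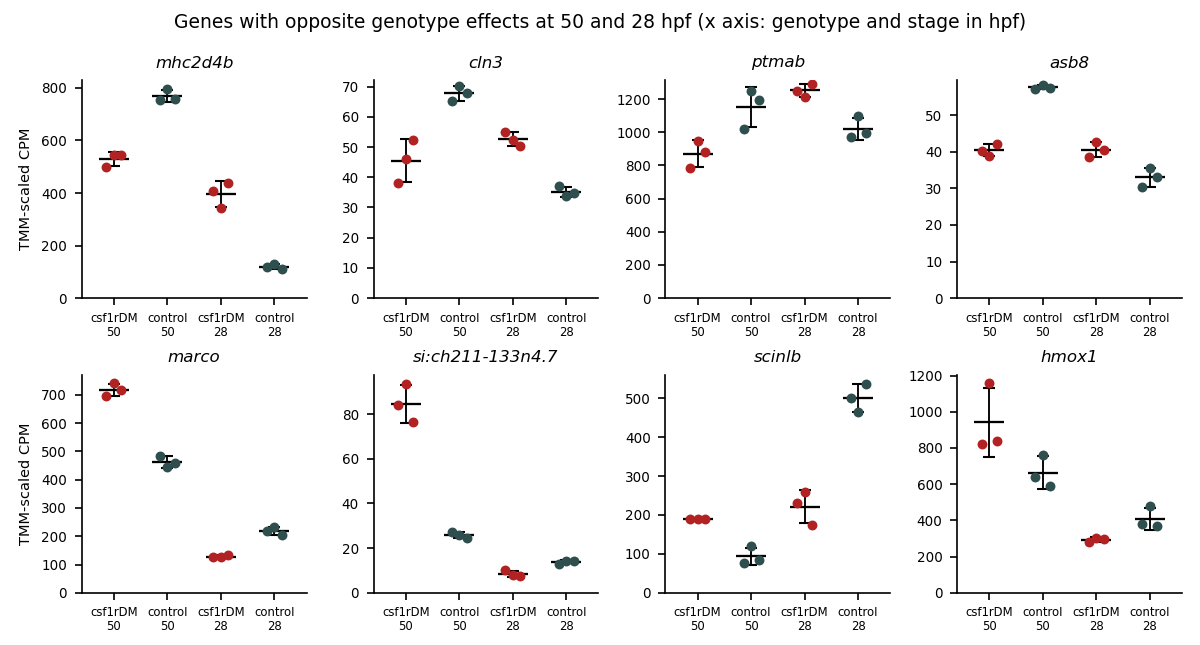
TMM-scaled CPM of 8 reversed genes in each library (points) of csf1rDM (red) and control (dark grey) at 50 and 28 hpf, with the mean and SD of 3 libraries per group (lines). In the upper row csf1rDM lies below control at 50 hpf and above it at 28 hpf, as for mhc2d4b with interaction -2.26, and in the lower row the order is the other way, as for marco with 1.41.

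Among the 32 genes that were higher in csf1rDM with an effect grown by 50 hpf, 3 belonged to the mfap4 family, secreted fibrinogen-domain proteins that zebrafish macrophages express. These paralogues lie close in sequence and may share reads, so that their separate levels are uncertain. In csf1rDM at 50 hpf mfap4.8 measured 415, 585 and 458 CPM, against 96.0, 92.5 and 97.4 CPM in control. At 28 hpf the values were 2256, 2555 and 2226 CPM in csf1rDM and 1272, 1445 and 1258 CPM in control. The transcript was lower at 50 hpf in both genotypes, with stage differences of -2.27 in csf1rDM and -3.80 in control on the log2 scale, and csf1rDM stood above control at each stage. The genotype effect was 2.35 ± 0.112 at 50 hpf and 0.82 ± 0.107 at 28 hpf, an interaction of 1.53 ± 0.152 (adjusted p = 0.000764). The interaction was 1.88 ± 0.207 for mfap4.11 and 1.18 ± 0.173 for mfap4.7 (adjusted p = 0.0016 and 0.00939).

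Other genes of this kind were also lower at 50 hpf in control. The surface glycoprotein gene thy1 (ENSDARG00000035018) measured 91.7, 106 and 103 CPM in csf1rDM and 18.3, 21.3 and 25.2 CPM in control at 50 hpf, with 187, 167 and 158 CPM in csf1rDM and 102, 113 and 102 CPM in control at 28 hpf (interaction 1.52 ± 0.170, adjusted p = 0.0016). The secretory calcium-binding phosphoprotein gene scpp8 (ENSDARG00000093124) had 32.9, 42.4 and 25.0 CPM in csf1rDM and 1.38, 1.53 and 0.768 CPM in control at 50 hpf, with 44.4, 46.8 and 67.9 CPM in csf1rDM and 21.4, 20.8 and 13.3 CPM in control at 28 hpf. Control at 50 hpf was far below the other groups. The stage difference of scpp8 was -0.67 in csf1rDM (adjusted p = 0.0645) and -3.88 in control (adjusted p = 2.16e-06), and its interaction was 3.22 ± 0.399 (adjusted p = 0.00296). The uncharacterised gene ENSDARG00000097726 had the same shape, with an effect of 3.33 ± 0.219 at 50 hpf and 1.44 ± 0.192 at 28 hpf (interaction 1.90 ± 0.284, adjusted p = 0.00954). The peroxiredoxin gene prdx5, of antioxidant defence, measured 195, 234 and 196 CPM in csf1rDM and 91.3, 116 and 109 CPM in control at 50 hpf, while at 28 hpf its effect was -0.13 ± 0.0956 (adjusted p = 0.393, interaction 1.11 ± 0.136, adjusted p = 0.00296).

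In c1ql1 and glb1l the csf1rDM libraries at 50 hpf stood above all others. The C1q-like gene c1ql1 (ENSDARG00000043436) measured 1643, 2156 and 1781 CPM in csf1rDM and 641, 691 and 739 CPM in control at 50 hpf, with 531, 529 and 572 CPM in csf1rDM and 424, 449 and 421 CPM in control at 28 hpf. Its interaction was 1.09 ± 0.126 (adjusted p = 0.00195). The olfactomedin gene olmf4l1 had a stage difference of 0.00 in csf1rDM (adjusted p = 0.985) and one of -0.73 in control (adjusted p = 1.23e-05, interaction 0.73 ± 0.101, adjusted p = 0.00631). For glb1l, which encodes a protein related to the lysosomal beta-galactosidase, the interaction was 0.69 ± 0.0898 (adjusted p = 0.00384). The gene ENSDARG00000089636, which has no symbol, had an interaction of 2.11 ± 0.318 (adjusted p = 0.00995).

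The 56 genes that were lower in csf1rDM with an effect grown by 50 hpf included phagocyte, lipid and chromatin genes beside the mitotic genes described below. The gene elmo1 (ENSDARG00000098753), which acts with Dock proteins to activate Rac during engulfment, measured 561, 591 and 583 CPM in csf1rDM and 948, 961 and 1033 CPM in control at 50 hpf. The 28 hpf values were 899.6, 892 and 934 CPM in csf1rDM and 1006, 1002 and 1059 CPM in control. The csf1rDM libraries at 50 hpf were below all others, and the interaction was -0.59 ± 0.0730 (adjusted p = 0.00296). The same held for insig1 (ENSDARG00000010658), a feedback inhibitor of sterol synthesis, with 40.5, 51.3 and 41.6 CPM in csf1rDM and 80.0, 85.3 and 84.1 CPM in control at 50 hpf, with 95.0, 82.3 and 87.6 CPM in csf1rDM and 66.3, 69.7 and 78.2 CPM in control at 28 hpf (-1.21 ± 0.157, adjusted p = 0.00384). The linker histone gene histh1l1 (ENSDARG00000035519) had 155, 247 and 228 CPM in csf1rDM and 511, 638 and 536 CPM in control at 50 hpf. At 28 hpf the ranges overlapped, with 948, 757 and 896 CPM in csf1rDM and 663, 767 and 692 CPM in control, and its interaction was -1.71 ± 0.213 (adjusted p = 0.00296). The renin-binding protein gene renbp had an interaction of -0.99 ± 0.126 (adjusted p = 0.00346), and the calcium-binding protein gene cabp5b one of -1.76 ± 0.246 (adjusted p = 0.00631). For tmem269, a transmembrane protein gene, the csf1rDM libraries at 50 hpf held 1.59, 0.804 and 0.889 CPM against 4.69, 6.41 and 6.33 CPM in control, and the 28 hpf values of the genotypes overlapped (-2.43 ± 0.361, adjusted p = 0.00954).

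In a further set, control was higher at 50 than at 28 hpf and csf1rDM was not, or less so. The organic anion transporter gene slco2b1 (ENSDARG00000054609), which is expressed in microglia, measured 46.6, 28.9 and 35.5 CPM in csf1rDM and 250.5, 229.6 and 245 CPM in control at 50 hpf. Its 28 hpf values were 14.1, 25.1 and 17.5 CPM in csf1rDM and 53.6, 40.5 and 51.8 CPM in control. Control was higher at 50 hpf by 2.31 and csf1rDM by 0.96 on the log2 scale, and the interaction of -1.36 ± 0.287 lay just inside the threshold (adjusted p = 0.0492, called in 2 of the 12 leave-one-out fits). The lipase gene lipg (ENSDARG00000031044), which acts on lipoproteins, had 2.82, 0.0804 and 0.815 CPM in csf1rDM and 38.4, 38.3 and 41.6 CPM in control at 50 hpf, with between 0.540 and 3.49 CPM in all libraries at 28 hpf. Control at 50 hpf was thus above all other libraries, and the interaction was -5.00 ± 0.959 (adjusted p = 0.0313). The receptor gene tlr21, which senses bacterial DNA in chicken, had an effect of -2.04 ± 0.173 at 50 hpf and -0.82 ± 0.169 at 28 hpf (interaction -1.22 ± 0.238, adjusted p = 0.0341). For nfkb2, a subunit of the NF-kB transcription factor, the interaction was -0.75 ± 0.146 (adjusted p = 0.0326). Of the 12 leave-one-out fits, 3 called lipg, 2 tlr21 and 1 nfkb2. The collagen-binding proteoglycan gene lum averaged 14.8 ± 2.57 CPM in csf1rDM and 34.5 ± 4.54 CPM in control at 50 hpf (SD, n = 3 each), without overlap, and the interaction was -1.50 ± 0.226 (adjusted p = 0.00995). The 27 mesenchyme marker IDs, lum among them, summed to between 116 and 392 CPM in csf1rDM and between 208 and 495 CPM in control at 50 hpf, and to between 101 and 251 CPM in csf1rDM and between 63.4 and 95.4 CPM in control at 28 hpf, and their part in the lum result was not tested.

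Of the 44 genes whose effect was larger at 28 hpf, the largest effects at that stage among the named genes that were lower in csf1rDM were in ccr2, syngr2a and hopx. The synaptogyrin gene syngr2a (ENSDARG00000052429), of a family of vesicle membrane proteins, measured 80.8, 85.6 and 86.3 CPM in csf1rDM and 347, 340.4 and 358 CPM in control at 50 hpf. At 28 hpf it measured 34.2, 39.6 and 32.4 CPM in csf1rDM and 352, 349 and 361 CPM in control. Control did not differ detectably between stages (-0.02, adjusted p = 0.877), csf1rDM was higher at 50 hpf by 1.25 (adjusted p = 3.76e-07), and the interaction was 1.27 ± 0.114 (adjusted p = 0.000301). In hopx, an atypical homeodomain gene, control was the group that differed, with 24.6, 31.7 and 33.8 CPM at 50 hpf against 90.3, 90.2 and 85.0 CPM at 28 hpf. The csf1rDM libraries held 9.87, 15.5 and 12.2 CPM of hopx at 50 hpf and 14.9, 14.6 and 17.7 CPM at 28 hpf (interaction 1.23 ± 0.233, adjusted p = 0.0298, called in 3 of the 12 leave-one-out fits). The chemokine receptor gene ccr2, which guides monocytes in mammals, held 19.3, 17.4 and 19.1 CPM in csf1rDM and 29.9, 34.3 and 31.0 CPM in control at 50 hpf. Its 28 hpf libraries held 0.364, 0.270 and 0.143 CPM in csf1rDM and 2.38, 2.49 and 1.18 CPM in control (2.21 ± 0.446, adjusted p = 0.0382, called in 2 of the 12 leave-one-out fits). In both genotypes ccr2 was higher at 50 hpf, by 6.20 in csf1rDM and 3.99 in control. Its csf1rDM values at 28 hpf, from 0.143 to 0.364 CPM, lie near the floor. The sizes of its 28 hpf effect, csf1rDM stage difference and interaction are therefore uncertain.

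In several genes that were lower in csf1rDM at 28 hpf, the effect at 50 hpf did not pass the test. The antiproliferative gene btg3 measured 19.3, 16.2 and 17.2 CPM in csf1rDM and 17.1, 19.6 and 18.9 CPM in control at 50 hpf, with 8.14, 10.1 and 10.1 CPM in csf1rDM and 22.0, 23.6 and 22.3 CPM in control at 28 hpf (interaction 1.17 ± 0.193, adjusted p = 0.0167). The groups of btg3 overlapped at 50 hpf and were apart at 28 hpf. The same order held for the chemokine gene ccl34a.4 (1.20 ± 0.200, adjusted p = 0.0167), the RNA helicase gene ddx5 (0.54 ± 0.0898, adjusted p = 0.0167), the galectin gene lgals2a (0.60 ± 0.114, adjusted p = 0.0298), efl1, which acts in maturation of the large ribosomal subunit (1.96 ± 0.359, adjusted p = 0.0264, called in 4 of the 12 leave-one-out fits), and the uncharacterised gene ENSDARG00000078824 (2.15 ± 0.392, adjusted p = 0.0255). The lysosomal protease gene ctsc stayed lower in csf1rDM at 50 hpf, with an effect of -0.34 ± 0.0663 against -0.82 ± 0.0667 at 28 hpf (0.48 ± 0.0937, adjusted p = 0.0335, called in 2 of the 12 leave-one-out fits).

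Genes that were higher in csf1rDM at 28 hpf with a smaller difference at 50 hpf included regulators of the oxidative burst and of cell death. The gene ncf1 (ENSDARG00000033735), which encodes a cytosolic subunit of the phagocyte NADPH oxidase, measured 265, 338 and 334 CPM in csf1rDM and 364, 385 and 353 CPM in control at 50 hpf. In the 28 hpf libraries it measured 1104, 917 and 997 CPM in csf1rDM and 569.6, 555 and 559 CPM in control. The csf1rDM libraries were above control at 28 hpf and just below it at 50 hpf (effect -0.23 ± 0.0923 at 50 hpf, adjusted p = 0.0967, against 0.84 ± 0.0927 at 28 hpf), and the interaction was -1.08 ± 0.131 (adjusted p = 0.00296). Neutrophils also express ncf1, and the 11 neutrophil marker IDs, led by srgn, summed to between 802 and 940.3 CPM in csf1rDM and between 616 and 692 CPM in control at 50 hpf. At 28 hpf they summed to between 913 and 1165 CPM in csf1rDM and between 955 and 1624 CPM in control. The 9 tested IDs of this list had a median interaction of 0.52, with 7 positive and 2 negative. The part of neutrophils in the ncf1 result was not tested.

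The death ligand gene tnfsf10 (TRAIL) had 58.7, 57.7 and 61.4 CPM in csf1rDM and 25.6, 25.6 and 25.3 CPM in control at 50 hpf. At 28 hpf it had 46.5, 47.5 and 53.1 CPM in csf1rDM and 10.8, 8.29 and 11.5 CPM in control. The genotypes were apart at both stages, with the gap wider on the log2 scale at 28 hpf (interaction -1.05 ± 0.172, adjusted p = 0.0167). The necroptosis kinase gene ripk3 had an effect of -0.07 ± 0.0881 at 50 hpf (adjusted p = 0.643) and was higher in csf1rDM at 28 hpf by 0.67 ± 0.0887 (interaction -0.74 ± 0.125, adjusted p = 0.0183). For cxcr4, the receptor of the chemokine Cxcl12, the symbol belongs to 2 IDs, and ENSDARG00000041959 measured 103, 85.5 and 119 CPM in csf1rDM and 91.0, 101 and 89.6 CPM in control at 50 hpf, with 243, 218 and 234 CPM in csf1rDM and 97.6, 119 and 91.5 CPM in control at 28 hpf. The csf1rDM libraries at 28 hpf thus stood above all others (interaction -1.05 ± 0.180, adjusted p = 0.019). The sestrin gene sesn1, a target of p53 in mammals, remained higher in csf1rDM at 50 hpf (0.52 ± 0.148, against 1.64 ± 0.153 at 28 hpf, interaction -1.13 ± 0.210, adjusted p = 0.0272, called in 3 of the 12 leave-one-out fits). The remaining named genes of this kind, nt5dc2, si:ch211-197h24.9, si:dkey-237j10.2, pargl and mien1, had interactions between -1.28 and -0.70. Of the 12 leave-one-out fits, 4 called si:dkey-237j10.2, 4 mien1 and 5 pargl.

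**Figure D3:**
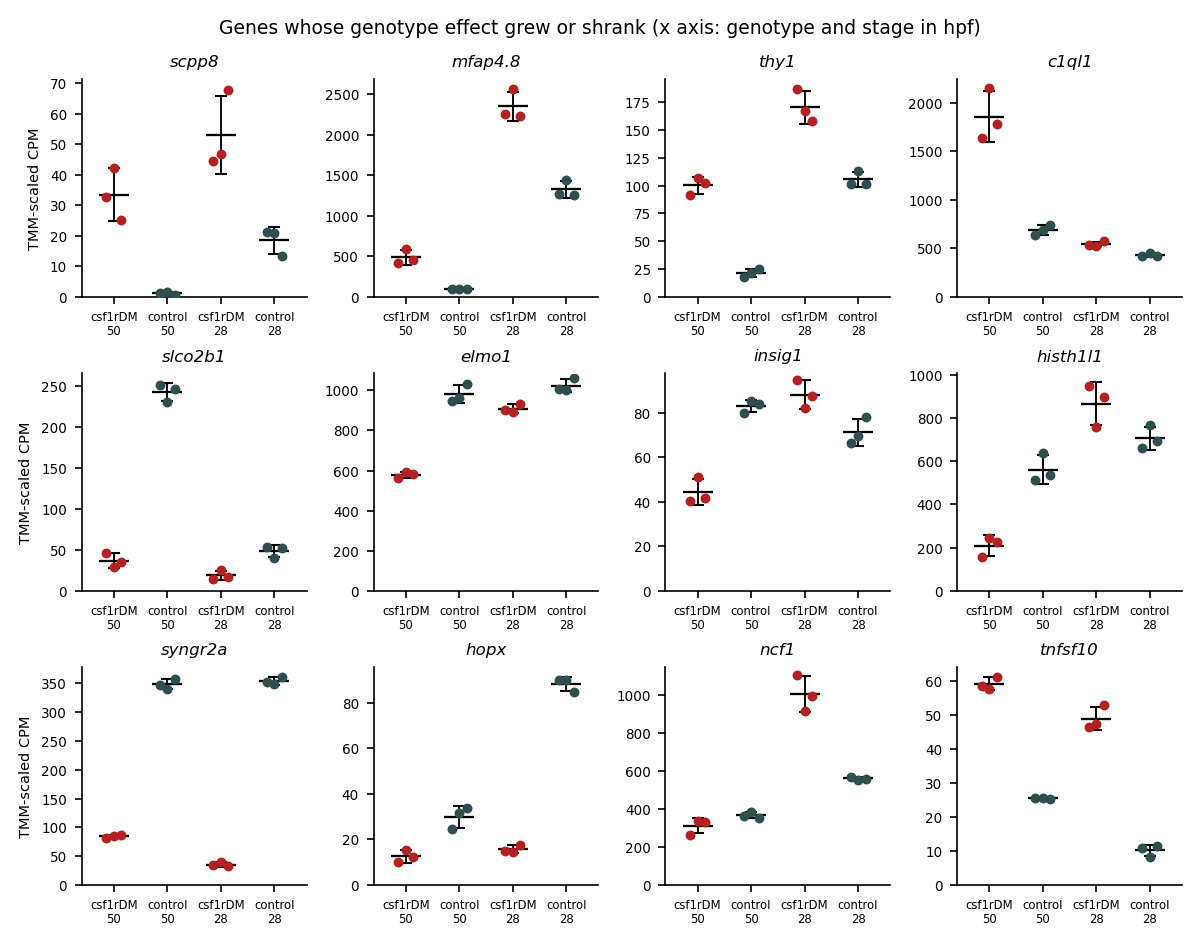
TMM-scaled CPM of 12 genes in each library (points) of csf1rDM (red) and control (dark grey) at 50 and 28 hpf, with the mean and SD of 3 libraries per group (lines). The first 4 genes were higher and the next 4 lower in csf1rDM at 50 hpf with a grown effect, as for scpp8 with interaction 3.22 and slco2b1 with -1.36, and the last row holds genes whose effect was larger at 28 hpf, as for syngr2a with 1.27.

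Genes of cell division shared a direction. Entry into mitosis is driven by cyclin B and its kinase, chromosomes are condensed by condensin, and the spindle and its checkpoint distribute them. In a list of 83 tested G2/M and mitosis genes, 81 had a negative interaction and 60 had an unadjusted p under 0.05 (72.3%, against 12.9% of all genes). Of these 83 genes, 9 passed the interaction test, all of them more negative at 50 hpf, which is 10.8% beside 0.542% of all genes. DESeq2 called 29 of them (beside 1.74% of all genes) and limma-voom 12 (beside 0.627%), all more negative. With a term for replicate number in the fit, edgeR called 3 of the 83, more negative, and 84 of all genes. With the muscle sum as a covariate, in a fit of all 12 libraries, edgeR called 0 of the 83 and 28 of all genes. With so few calls over all genes, a count of 0 among 83 shows nothing particular to the list. Without the 5 libraries with muscle transcripts edgeR called none of the 83 and 3 of all genes, in a fit with 1 library each of control at 50 hpf and csf1rDM at 28 hpf, whose spread was taken from the other groups. The median interaction of the list was -0.78, beside -0.03 over all genes. The median genotype effect of the list was -1.12 at 50 hpf and -0.27 at 28 hpf. Of its genes 66 were lower in csf1rDM at 50 hpf and 21 at 28 hpf (beside 11.4% and 10.9% of all genes), with none higher at either stage. The 2 members with a positive interaction were the kinetochore gene cenpo (0.19 ± 0.316) and the centriole gene stil (0.71 ± 0.324, adjusted p = 0.377).

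The mean log2 CPM of the list was 4.21, 4.01 and 4.38 in csf1rDM and 5.34, 5.27 and 5.30 in control at 50 hpf. At 28 hpf it was 5.65, 5.67 and 5.34 in csf1rDM and 5.77, 6.02 and 5.86 in control. All csf1rDM libraries were below the control libraries of their stage. Both genotypes had less mitotic expression at 50 than at 28 hpf, with a median stage difference of -1.40 in csf1rDM and -0.62 in control. Of the 83 genes, 43 were lower at 50 hpf in both genotypes, 32 were lower at 50 hpf past the test in csf1rDM alone, none in control alone, and 8 in neither. Over all genes, 14.4% were lower at 50 hpf in csf1rDM and 11.4% in control, and the share with each of these patterns was not counted. A gene past the stage test in csf1rDM alone is not shown to differ between the genotypes.

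The spindle checkpoint kinase gene ttk (ENSDARG00000041361) measured 48.0, 46.0 and 51.0 CPM in csf1rDM and 124, 102 and 95.6 CPM in control at 50 hpf, with 174, 151 and 144 CPM in csf1rDM and 148, 168 and 144 CPM in control at 28 hpf. The genotypes were apart at 50 hpf (effect -1.15 ± 0.118) and overlapped at 28 hpf (0.03 ± 0.115), an interaction of -1.18 ± 0.164 (adjusted p = 0.00631). The cyclin gene ccnb3 measured 13.7, 16.1 and 16.2 CPM in csf1rDM and 39.9, 32.9 and 36.1 CPM in control at 50 hpf, with 47.7, 51.1 and 39.6 CPM in csf1rDM and 39.7, 48.2 and 42.0 CPM in control at 28 hpf (-1.33 ± 0.188, adjusted p = 0.00648). Its csf1rDM libraries at 50 hpf were below all other libraries, as they were for tacc3, which stabilises spindle microtubules, with 23.1, 28.0 and 37.0 CPM in csf1rDM and 82.3, 69.8 and 75.1 CPM in control at 50 hpf (-1.40 ± 0.218, adjusted p = 0.0122).

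The mitotic kinase gene plk1 had an interaction of -1.14 ± 0.228 (adjusted p = 0.0378), and cdca8, which encodes borealin of the chromosomal passenger complex, one of -1.09 ± 0.232 (adjusted p = 0.0496). The condensin genes smc4 (-0.80 ± 0.158, adjusted p = 0.0352) and ncapg2 (-0.94 ± 0.193, adjusted p = 0.042), the spindle motor gene kif15 (-1.02 ± 0.204, adjusted p = 0.0376) and the cytokinesis gene anln (-0.97 ± 0.191, adjusted p = 0.0352) complete the 9. Of these 9 genes, ttk and ccnb3 were called in all 12 leave-one-out fits, tacc3 in 10, and the other 6 in 1 to 3. The widely used markers ccnb1, cdk1 and mki67 did not pass the test. The interaction was -0.83 ± 0.182 for the mitotic cyclin ccnb1 (adjusted p = 0.0583), -0.92 ± 0.224 for its kinase cdk1 (adjusted p = 0.0821) and -0.76 ± 0.299 for the proliferation marker mki67 (adjusted p = 0.302).

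Genes of DNA synthesis were lower in csf1rDM at both stages. In the list of 53 tested replication genes, 47 were lower in csf1rDM at 50 hpf and 42 at 28 hpf (beside 11.4% and 10.9% of all genes). The median effects of the list were -1.36 and -0.79. The median interaction was -0.49, 46 of the 53 values were negative, and 2 genes passed the interaction test (3.77%, beside 0.542% of all genes in this direction), the subunits mcm4 (-0.79 ± 0.125, adjusted p = 0.0142, called in 7 of the 12 leave-one-out fits) and mcm3 (-0.83 ± 0.166, adjusted p = 0.0378, called in 2) of the replicative helicase. DESeq2 called 9 of the 53 more negative and 1 more positive (beside 1.74% and 2.05% of all genes), and limma-voom 3 more negative (beside 0.627%). With the muscle sum as a covariate edgeR called 0 of the 53 and 28 of all genes. With a term for replicate number it called 1 of the 53, more negative, and 84 of all genes. Such small counts show nothing particular to the list. The helicase gene mcm4 (ENSDARG00000040041) measured 79.1, 75.4 and 91.2 CPM in csf1rDM and 198, 226 and 237 CPM in control at 50 hpf, with 244, 257 and 261 CPM in csf1rDM and 408, 387 and 390.4 CPM in control at 28 hpf. All csf1rDM libraries were below the control libraries of their stage. A further list, of 20 genes of nucleotide synthesis and chromatin assembly, had 20 negative interactions with a median of -0.50. Of its genes 20 were lower in csf1rDM at 50 hpf and 19 at 28 hpf (beside 11.4% and 10.9% of all genes). In this list 1 gene passed the interaction test (5%, beside 0.542% of all genes in this direction). DESeq2 called 5 more negative and limma-voom 1 (beside 1.74% and 0.627% of all genes). With the muscle sum as a covariate 0 genes were called, and 0 with a term for replicate number. Those fits called 28 and 84 of all genes, so counts of 0 among 20 genes show nothing particular to the list. Its gene past the interaction test was rrm1, the large subunit of ribonucleotide reductase, with 134, 132 and 160.5 CPM in csf1rDM and 369.6, 405 and 435 CPM in control at 50 hpf, with 341, 334 and 299.8 CPM in csf1rDM and 585, 565 and 551 CPM in control at 28 hpf (-0.70 ± 0.128, adjusted p = 0.0255, called in 3 of the 12 leave-one-out fits).

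Ribosome biogenesis genes, which process ribosomal RNA in the nucleolus, had interactions mostly of the other sign. Of 79 tested members 68 had a positive interaction, with a median of 0.32, and 26 had an unadjusted p under 0.05 (32.9%). None passed edgeR's interaction test, while DESeq2 called 19, all more positive (beside 2.05% of all genes), and limma-voom 0 (beside 0.396%). Called genes outside the list also act in the nucleolus or in ribosome assembly and were more positive. They were efl1, described above, and nolc1 (0.50 ± 0.107, adjusted p = 0.0491) and nifk (0.77 ± 0.158, adjusted p = 0.0409), nucleolar proteins named after their values were seen. Of the 12 leave-one-out fits, 0 called nolc1 and 2 called nifk. All were taken from the genes called in this same contrast, so their direction is no separate support for the list. The median genotype effect of the list was -0.40 at 50 hpf and -0.70 at 28 hpf. Of its members 36 were lower in csf1rDM at 50 hpf and 60 at 28 hpf (beside 11.4% and 10.9% of all genes). The mean log2 CPM of the list was 5.37, 5.35 and 5.40 in csf1rDM and 5.61, 5.79 and 5.83 in control at 50 hpf, and 5.36, 5.32 and 5.26 in csf1rDM and 5.99, 6.01 and 5.99 in control at 28 hpf. The csf1rDM libraries differed little between stages, and the control libraries were lower at 50 hpf. The smallest p among members was that of dkc1, a pseudouridine synthase subunit, with 157, 178 and 152 CPM in csf1rDM and 158, 215 and 222 CPM in control at 50 hpf, with 135, 137 and 120.4 CPM in csf1rDM and 264, 269 and 261 CPM in control at 28 hpf (0.73 ± 0.168, adjusted p = 0.0675).

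**Figure D4:**
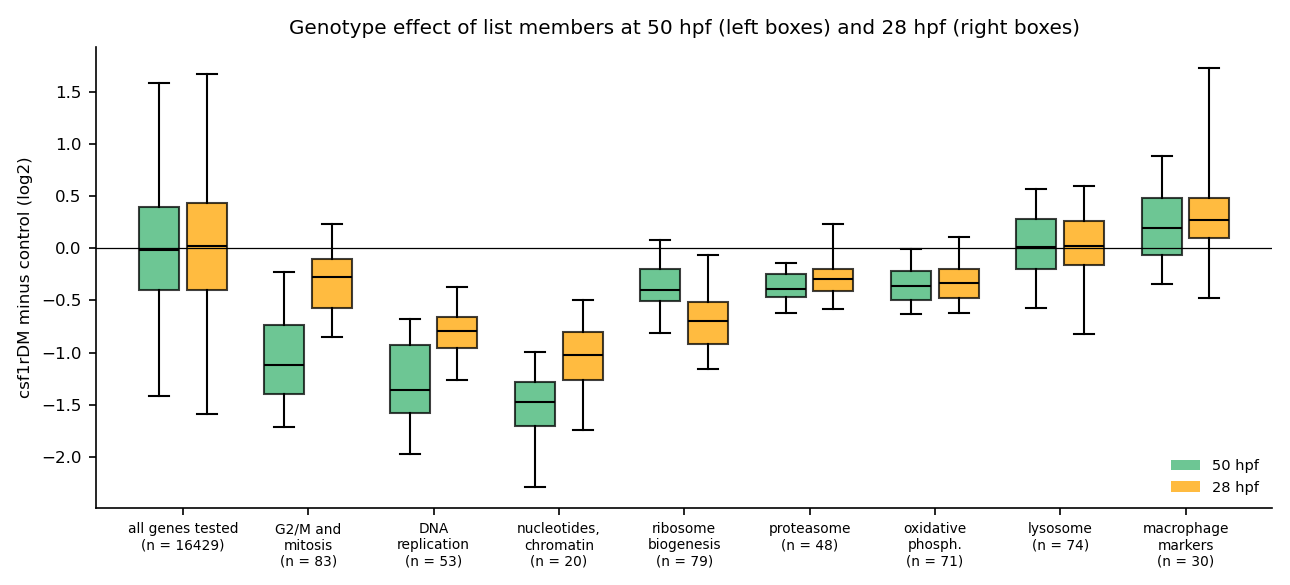
Genotype effect (csf1rDM minus control, log2) of the tested genes of 8 lists and of all genes at 50 hpf (left boxes) and 28 hpf (right boxes). Boxes span the quartiles with the median as a line and whiskers the 5th to 95th percentile over genes, which are not replicates. The G2/M list has medians of -1.12 at 50 hpf and -0.27 at 28 hpf, and ribosome biogenesis -0.40 and -0.70.

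Over all genes 7725 interactions were positive and 8704 negative. Of 75 cytosolic ribosomal protein genes 55 were positive (median interaction 0.04), of 38 interferon response genes 30 were negative (-0.18), and of 46 cell cycle entry genes 33 were negative (-0.23). The ribosomal protein median was smaller than the SD within groups of that list's mean log2 CPM (0.126). With DESeq2 size factors the median over all genes was 0.03 in place of -0.03, so the signs in that list are not read as a difference. In the proteasome list (48 tested genes, median interaction -0.06) and the oxidative phosphorylation list (71 genes, -0.01) no gene passed the interaction test, and the lists had similar median genotype effects at 50 and 28 hpf (-0.39 and -0.30 for the proteasome, -0.37 and -0.33 for oxidative phosphorylation). No gene passed among the 75 ribosomal proteins, 76 splicing and translation factors, 38 glycolysis genes, 45 genes of the unfolded protein and heat shock response, 38 glucocorticoid and clock genes, 28 metalloproteinase genes and 26 complement and coagulation genes. In each of these 9 lists between 1 and 8 genes had an unadjusted p under 0.05, DESeq2 called between 0 and 3 and limma-voom 0 or 1. At the share over all genes, 0.919%, a list of such a size would hold fewer than 1 called gene, so that these counts of 0 show nothing particular to the lists. The lists do not hold every gene of their function. Called genes outside them, named after their values were seen, included the complement factor H gene cfh (1.49 ± 0.230, adjusted p = 0.0118). Others were hnrnpul1l (-0.58 ± 0.111, adjusted p = 0.0303) and the interferon receptor gene ifngr1 (1.67 ± 0.296, adjusted p = 0.0224). Of the 12 leave-one-out fits, 12 called cfh, 6 ifngr1 and 1 hnrnpul1l. With the muscle sum as a covariate they did not pass 0.05. Apart from the G2/M, replication, nucleotide and chromatin, and ribosome biogenesis lists, the median interactions of the functional lists lay between -0.28 and 0.22. The ends of this range were 24 cholesterol synthesis genes, of which insig1 passed, and the complement and coagulation genes.

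Among macrophage functions, single genes of both directions passed. Shares of called genes lay between 1.67% (myeloid identity) and 6.25% (inflammasome and caspases) in the functional lists named here, beside 0.919% of all genes, but each rests on 1 to 3 genes and describes those genes, not the list. Of 74 lysosome genes 3 passed, cln3 more negative and the proteases ctsd and ctsc more positive, and ctsd measured 2564, 2612 and 2612 CPM in csf1rDM and 1704, 1835 and 1802 CPM in control at 50 hpf, with 1702, 1638 and 1681 CPM in csf1rDM and 1413, 1468 and 1431 CPM in control at 28 hpf (0.32 ± 0.0564, adjusted p = 0.0207, called in 4 of the 12 leave-one-out fits). Of 35 scavenger and phagocytosis genes, marco and elmo1 passed in opposite directions, as did ccr2 and cxcr4 among 37 chemokine and migration genes, scinlb and ncf1 among 65 actin and signalling genes, and btg3 and sesn1 among 46 cell cycle entry genes. Among 45 pattern receptor and NF-kB genes, tlr21 and nfkb2 passed, both more negative. Single genes passed among 30 antigen presentation genes (mhc2d4b), 60 myeloid identity genes (slco2b1), 42 lipid handling genes (lipg), 23 iron and heme genes (hmox1), 16 inflammasome and caspase genes (caspbl) and 38 interferon response genes. The last was the cytokine signalling inhibitor socs3, whose symbol belongs to 2 IDs and of which ENSDARG00000026611 was measured, with 249, 325 and 266 CPM in csf1rDM and 80.6, 90.8 and 117 CPM in control at 50 hpf, with 148, 135 and 123 CPM in csf1rDM and 97.0, 96.4 and 100.3 CPM in control at 28 hpf (1.07 ± 0.195, adjusted p = 0.0253). Of 30 tested macrophage marker IDs, marco and ncf1 passed.

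The same genes can be read along the stages of each genotype. Over all genes, 2358 were lower (14.4%) and 2179 higher (13.3%) at 50 than at 28 hpf in csf1rDM, and 1874 were lower (11.4%) and 1965 higher (12%) in control. Each of the 151 interaction genes passed the stage test in at least one genotype. The interaction is also the csf1rDM stage difference minus the control one in the same fit. That every gene passed follows closely from how the genes were picked, and these patterns add no test. In 25 the transcript was higher at 50 hpf and in 35 lower at 50 hpf in both genotypes, by unequal amounts, as for marco and mfap4.8. Control alone passed the stage test in 20 genes that were higher and 16 that were lower at 50 hpf, as for cln3 and scinlb. The csf1rDM libraries alone passed it in 22 genes that were higher and 25 that were lower at 50 hpf, as for syngr2a and insig1. Only 8 genes moved in opposite directions between the stages, 4 higher in csf1rDM and lower in control at 50 hpf and 4 the reverse, and pinx1 was among these, with a stage difference of 0.62 in csf1rDM and -0.45 in control.

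The count of interaction genes changed when single libraries were left out. It lay between 40 and 161 when 1 library was left out, and in each such fit the group reduced to 2 libraries was assumed to vary like the others. The filter on low counts was applied anew in each, so these fits tested between 16853 and 17580 genes, beside 16429 with all libraries. The part of this in the counts was not tested. Without a control library it was 60, 44 and 62 genes at 50 hpf and 42, 51 and 40 genes at 28 hpf for replicates 1, 2 and 3. Without a csf1rDM library it was 134, 113 and 161 at 50 hpf and 85, 85 and 119 at 28 hpf. The sign of all 151 interactions was the same in all 12 fits, 34 genes were called in all 12, among them all 26 past the stricter thresholds, and 9 were called in none. These fits share most libraries with the fit that picked the genes, so the kept signs are no independent check. With the muscle sum as a covariate in a fit of all 12 libraries, part of the 26 genes did not pass 0.05. They were ttk, ccnb3, ENSDARG00000097726, cln3, mfap4.7, lum, rarg, pinx1 and ENSDARG00000089636, with adjusted p values from 0.0519 (ttk) to 0.0881 (ENSDARG00000089636). When the 5 libraries with over 1000 CPM of muscle genes were left out, 19099 genes were tested. In this fit 7 libraries remained, with 1 library of control at 50 hpf and 1 of csf1rDM at 28 hpf. These lone libraries were assumed to vary like the other groups, and no replicate checks them. In this fit 3 genes were called at an adjusted p under 0.05, 1731 had an unadjusted p under 0.05, and none was called past the stricter thresholds. All 151 genes kept their sign in that fit, but its 7 libraries were also in the fit that picked the genes, so this is no independent check. The genes mhc2d4b (-2.32, adjusted p = 0.0308) and scinlb (2.26, adjusted p = 0.0308) were still called. The median interaction of the G2/M list was -0.99 without these libraries, that of replication -0.82 and that of ribosome biogenesis 0.17. The muscle list itself had a median interaction of -7.40 over 21 tested genes, of which 19 had an unadjusted p under 0.05 and 1, tnni2, was called.

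**Figure D5:**
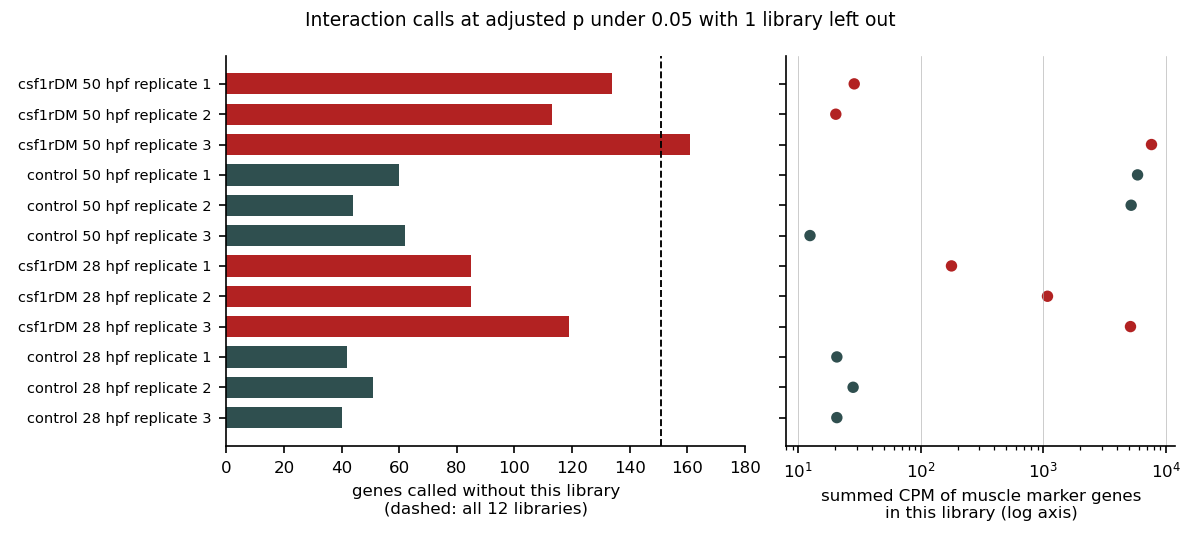
Left, the number of genes called in the interaction when the named library is left out (bars, with the 151 calls of all 12 libraries as a dashed line). Right, the summed CPM of muscle marker genes in that library on a log axis, with csf1rDM in red and control in dark grey. The calls range from 40 to 161, and the muscle sum exceeds 1000 CPM in 5 libraries of 3 groups.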

How the data were processed

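GFP-positive cells of trypsinised whole embryos were sorted by flow cytometry, and their cDNA was amplified with SMART-seq v4 and sequenced as read pairs. The authors deposited unnormalised counts of reads for each Ensembl ID. Reads were mapped to GRCz10, and the submitters' processing notes name CASAVA 1.8, cutadapt, STAR 2.5.4b, Cufflinks 2.2.1, HTSeq 0.11.0 and edgeR. The counting settings, strand use and annotation version are not given in the sources used here, so overlapping, antisense and paralogous genes are uncertain. All count columns matched a sample by name (0 did not), and 0 rows named no gene. Symbols came from a gene-name table that matched 27000 of the 35117 IDs, written in lower case where the table gave capitals.

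All 12 libraries entered 1 fit of edgeR 4.0.16 (R 4.3.3) with filterByExpr, TMM scaling and a mean per group, and genes were tested with the quasi-likelihood F test and Benjamini-Hochberg adjustment over 16429 genes. Standard errors were derived from the log2 value and its F statistic. The scripts were tested on simulated data. Named genes were those past an adjusted p of 0.01 with an absolute log2 value above 1, and, among genes past 0.05 with a symbol of 1 ID and a group mean of at least 10 CPM, all reversed genes and the 8 with the smallest p in each direction of the classes grown and shrunk. Members of the 26 functional and 14 marker lists, the targets and mpeg1 could also be named. Members and lists were chosen with earlier results of these data known. A class was given by the genotype effects in the same fit. Libraries held 8641139 to 20261650 counts, and statements on depth cover counting error only, since reads carried no molecular identifiers. Nothing says that the pools came from separate clutches, so p-values measure the spread between these pools, which may be technical. Alternatives covered scaling, filters, DESeq2 1.42.0, limma 3.58.1 (voom), a robust fit, the replicate block, thresholds and leaving out each library, and, chosen after seeing the data, leaving out or adjusting for libraries with muscle transcripts. No genome sequence was used.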

Additional observations from a re-analysis of the deposited data

Results flagged for a closer look

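The 26 genes past the stricter thresholds stand here because the test of the difference between their genotype effects at 50 and 28 hpf passed an adjusted p of 0.01 in edgeR's quasi-likelihood test, with an absolute log2 difference above 1. With opposite effects at the stages, the interaction was -2.26 for mhc2d4b, -1.15 for cln3, 1.41 for marco, 2.40 for si:ch211-133n4.7, 2.20 for scinlb, 1.55 for rarg and 1.08 for pinx1. With an effect grown by 50 hpf and more positive, it was 1.53 for mfap4.8, 1.88 for mfap4.11, 1.18 for mfap4.7, 1.52 for thy1, 1.09 for c1ql1, 1.11 for prdx5, 3.22 for scpp8, 1.90 for ENSDARG00000097726 and 2.11 for ENSDARG00000089636. Grown and more negative, it was -1.71 for histh1l1, -1.21 for insig1, -1.18 for ttk, -1.33 for ccnb3, -1.76 for cabp5b, -2.43 for tmem269 and -1.50 for lum. With an effect larger at 28 hpf, it was 1.27 for syngr2a, -1.08 for ncf1 and -1.28 for si:ch211-197h24.9. With the muscle sum as a covariate, the adjusted p was above 0.05 for ttk, ccnb3, ENSDARG00000097726, cln3, mfap4.7, lum, rarg, pinx1 and ENSDARG00000089636. Without the 5 libraries with muscle transcripts the 26 kept their sign, and mhc2d4b and scinlb had an adjusted p under 0.05. That fit holds 1 library of control at 50 hpf and 1 of csf1rDM at 28 hpf, assumed to vary like the other groups, so it gives no replicate check of these genes.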

How the results depend on the processing

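Beside 151 genes at an adjusted p under 0.05 and 26 past the stricter thresholds, DESeq2 called 622 and 133, a filter of at least 10 counts in every library 271 and 51, no filter on low counts 184 and 57, limma-voom 168 and 19, and the robust fit 179 and 29. DESeq2 size factors gave 156 and 28 calls, upper quartile scaling 144 and 26, and library size alone 197 and 28. An adjusted p under 0.1 gave 299 genes, and requiring an absolute log2 value above 1 at an adjusted p of 0.05 gave 92. Leaving out the 5 libraries with over 1000 CPM of muscle genes gave 3 and 0 calls, with 1731 genes at an unadjusted p under 0.05, and the muscle sum as a covariate gave 28 and 4. These last alternatives were chosen after seeing the data. All 151 genes kept their sign wherever they were tested, which is no independent check because they were picked in these same libraries. The cause of the different counts was not tested, except that the fit of 7 libraries has 1 of control at 50 hpf and 1 of csf1rDM at 28 hpf, assumed to vary like the others.

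With 1 library left out, the count ran from 40 (without control 28 hpf replicate 3) to 161 (without csf1rDM 50 hpf replicate 3), and past the stricter thresholds from 5 (without control 50 hpf replicate 2) to 29 (without csf1rDM 50 hpf replicate 3). The median interaction of the G2/M list ran from -0.96 to -0.61, that of replication from -0.57 to -0.35 and that of ribosome biogenesis from 0.25 to 0.42. The median over all genes was -0.03, and 0.12 with no filter on low counts.

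With the replicate block, 84 genes (45 more positive and 39 more negative) and 16 past the stricter thresholds were called. Same-numbered libraries of different groups deviated together with correlations between -0.357 and 0.168 over 18 pairs, 4 of them over 0.1, and 7 of 12 libraries correlated best with one of their own number. The lowest value joined replicate 3 of control and of csf1rDM at 50 hpf, with 12.5 and 7651 CPM of muscle genes. These values do not decide whether the numbers pair the samples. The labels do not state a pairing, so the main fit held no term for replicate number.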

Other observations

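The summed levels of several marker lists did not overlap between the stages in either genotype. They included the macrophage, yolk and liver, pigment, and T cell and thymus lists, beside the 3 described here. The pigment sum was led by tfec and the T cell and thymus sum by ikzf1. Of the 17 T cell and thymus IDs 6 were tested. Whether these sums measure such cells was not tested. The 13 protein-coding genes of the mitochondrial genome summed to between 16332 and 19282 CPM in csf1rDM and between 16376 and 18907 CPM in control at 50 hpf, and to between 12439 and 14117 CPM in csf1rDM and between 13855 and 14770 CPM in control at 28 hpf. Their median interaction was 0.15, and none of the 13 passed edgeR's interaction test (1 had an unadjusted p under 0.05, and DESeq2 and limma-voom called 0). The 22 IDs of a list of endothelial markers, led by stab1, which phagocytes also express and the scavenger list also holds, summed to between 486 and 505 CPM in csf1rDM and between 641 and 805 CPM in control at 50 hpf, against between 212 and 228 CPM in csf1rDM and between 196 and 203 CPM in control at 28 hpf. The genotypes overlapped at neither stage, with csf1rDM lower at 50 hpf and higher at 28 hpf, and none of the 16 tested IDs passed edgeR's interaction test (2 had an unadjusted p under 0.05, DESeq2 called 1 and limma-voom 0). Over all genes edgeR called 0.919%, and 12.9% had an unadjusted p under 0.05. DESeq2 called 2.05% of all genes more positive and 1.74% more negative. The counts in the mitochondrial and endothelial lists therefore show nothing particular to them. The median interaction of the 16 endothelial IDs was 0.33, opposite in sign to the difference in the sum of their list. The gene stab1 averaged 227 CPM in csf1rDM and 338 CPM in control at 50 hpf, and 26.8 CPM in csf1rDM and 22.7 CPM in control at 28 hpf, so the sum is not a measure of endothelial cells alone. The 21 neural marker IDs, led by marcksl1b, summed to between 272 and 442 CPM in csf1rDM and between 402 and 476 CPM in control at 50 hpf, and to between 1073 and 1450.4 CPM in csf1rDM and between 1137 and 1167 CPM in control at 28 hpf.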
